A study of Mus musculus with 10 samples.

Results

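The transcription factor p53 (gene Trp53) and 9 of its direct target genes were followed in mouse MLL-AF9 leukemia cells treated with 1 of 4 inhibitors. The members were taken by name from the gene column of the count table and are Trp53, Mdm2, Ccng1, Trp53inp1, Sesn2, Phlda3, Zmat3, Aen, Perp and Tigar, 10 of 24015 genes. Of these, 9 were listed under their own symbol and Tigar was found under its RefSeq synonym 9630033F20Rik. Cdkn1a and the BCL2 family belong to the same pathway and are not among them.

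RNA was sequenced from MAF9 cells, which are C57BL/6 mouse bone marrow cells carrying a retrovirally transduced MLL-AF9 fusion gene, grown with interleukin-3 at 10 ng/ml in a medium holding 15% serum. All groups, the controls included, carry the fusion and were grown in the same medium, and the fusion sits outside its natural locus. Cells received MM-401, which blocks binding between MLL1 and WDR5, EPZ5676, which inhibits the methyltransferase DOT1L, MI-2-2, which blocks MENIN, iBET, named here as in the labels, or DMSO as control. Treatment lasted 4 days, each inhibitor was given at its own half-inhibitory dose, and no source used here names the doses. Each of the 5 groups had 2 libraries, described as biological duplicates, and no source states whether the duplicates came from separate cultures or transductions.

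Levels are given in reads per 1000000 reads (CPM) after TMM scaling, which adjusts each library total for differences in composition. Library totals lay between 20394762 and 29473127 reads, so that 1 read was worth 0.0339 to 0.0490 CPM before that scaling. A member "passed" when the adjusted p of edgeR's quasi-likelihood test, fitted on all 12971 genes kept by the filter on low counts, was under 0.05. The adjusted p-values below come from that edgeR test with Benjamini-Hochberg adjustment, and each log2 fold change carries its standard error after ±. Ranges of adjusted p over the alternatives run are the exception, as they also hold the values of DESeq2.

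DMSO replicate 2 stood apart from the other 9 libraries. It held 3630 reads on 4 Y-linked genes, against 0 to 2 in each of the others, and Xist was at 4.76 CPM there and between 928 and 3051 CPM elsewhere. Its summed T and NK cell markers were at 65.8 CPM, almost all from Nkg7, beside 0.0765 to 6.31 elsewhere, and its mast cell and basophil markers at 130 CPM beside 18.1 to 45.2. Erythroid, megakaryocyte, B cell, and stroma and endothelium markers summed to at most 1.32, 8.66, 8.24 and 45.0 CPM in any library. The 12 myeloblast markers, among them Kit, Myb and Mpo, were all detected in every library, at unlike levels. In DMSO replicates 1 and 2 they summed to 11314 and 15037 CPM, and the neutrophil markers to 3676 and 682 CPM. Mpo alone was at 418 and 4927 CPM there, scaled by library totals. By the Y-linked and Xist reads, replicate 2 had the pattern of male cells and the other 9 libraries that of female cells. The DMSO duplicates thus did not come from cells of the same animal. Calls against DMSO are therefore given with both DMSO libraries and without replicate 2. In the latter fit 1 DMSO library remains and is assumed to vary like the other groups.

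The p53 protein is a sequence-specific transcription factor that responds to DNA damage, oncogene activity and metabolic stress, and its amount is set largely by protein turnover. Mdm2, itself switched on by p53, is the ubiquitin ligase that marks p53 for degradation, so that the pair form a feedback loop. The other targets slow the cell cycle, promote apoptosis, restrain growth signalling or alter metabolism, and in blood cells p53 limits the expansion of stem and leukemic cells.

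p53 binds DNA as a tetramer to 2 half-sites of 10 letters each. The stretches below hold the letters nearest to that motif in the members' promoters, where a match was found. Whether p53 binds there was not tested, and a site outside the promoters searched would be missed. RefSeq promoter windows (GRCm38.p6, 250 bases before to 50 after the start) were found for 7 of the 10 members and not for Perp, Trp53inp1 and Zmat3. An exact match to the p53 half-site consensus, which reads the same on both strands, was present in the windows of Ccng1, Mdm2, Trp53 and Aen, 4 of the 7, and in 8.36% of 32851 windows of all genes. A pair of half-sites, scored as at most 3 mismatches over 20 letters with a spacer of at most 1 and the C and G of each CNNG core kept, was present in Ccng1, Trp53, Aen and Tigar, and in 2.82% of all windows. Every pair here overlaps its own exact half-site where the window holds one. Capitals mark the pair, or the half-site for Mdm2, and each stretch is written on the gene's strand.
Ccng1, chr11:40755442-40755501, minus strand, 1 mismatch, 195 to 176 bases before the start: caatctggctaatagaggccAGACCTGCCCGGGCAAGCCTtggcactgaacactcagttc
Mdm2, chr10:117710915-117710964, minus strand, exact half-site, 186 to 177 bases before the start: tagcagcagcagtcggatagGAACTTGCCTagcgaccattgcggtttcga
Trp53, chr11:69580264-69580323, plus strand, 3 mismatches, 75 to 56 bases before the start: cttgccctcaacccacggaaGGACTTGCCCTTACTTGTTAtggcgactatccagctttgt
Tigar, chr6:127109726-127109785, minus strand, 3 mismatches, 213 to 194 bases before the start: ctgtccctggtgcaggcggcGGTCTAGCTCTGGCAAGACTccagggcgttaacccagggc
Aen, chr7:78895932-78895961, plus strand, 3 mismatches, 121 to 102 bases before the second listed start and 10 to 29 after the first: aagccGGGCTTGTCCGGGCAAGGAGcttcc
No match was found in the windows of Phlda3 and Sesn2. A match describes the letters only, and the search was made after the expression values were known. The members were listed as p53 targets, and their counts are of genes while the shares are of windows. No enrichment was tested.

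Per kilobase of exon, the scale on which genes can be set against each other, Ccng1 had the highest median level over the 10 libraries (74.5 CPM per kb), followed by Trp53 (51.4) and Mdm2 (39.2). Tigar (16.4), Trp53inp1 (12.8) and Sesn2 (11.8) were intermediate. Aen (7.70), Phlda3 (4.25) and Zmat3 (2.25) were low, and Perp was near the limit of detection at 0.0236 CPM per kb.

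**Figure D1:**
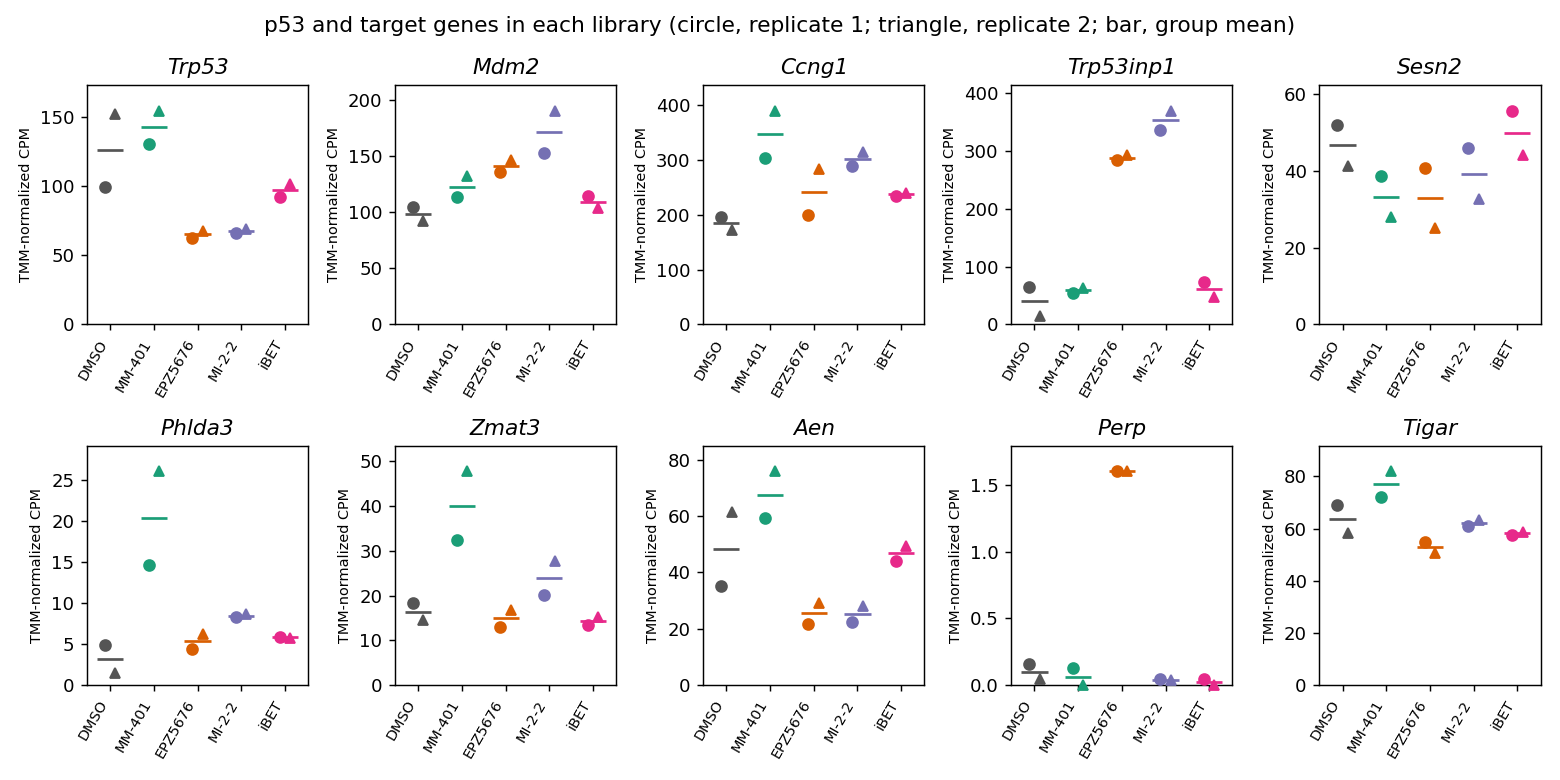
TMM-normalized CPM of each member in each of the 10 libraries, by treatment; circles are replicate 1, triangles replicate 2 and bars the group means. Trp53inp1 sits between 284 and 370 CPM in the EPZ5676 and MI-2-2 libraries and at or below 73.5 CPM in the other 6, whereas Phlda3 and Zmat3 are highest in the 2 MM-401 libraries.

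Trp53 RNA was lower after EPZ5676 and MI-2-2 and not detectably different after MM-401 or iBET. It was at 99.6 and 153 CPM in the DMSO libraries, 131 and 155 with MM-401, 62.8 and 68.0 with EPZ5676, 66.5 and 69.4 with MI-2-2, and 92.5 and 102 with iBET. The 4 libraries of EPZ5676 and MI-2-2 lay below all 6 others, while MM-401 and iBET overlapped the DMSO range. Trp53 fell 1.93-fold with EPZ5676 (log2 fold change -0.95 ± 0.20, adjusted p = 0.00790) and 1.86-fold with MI-2-2 (-0.89 ± 0.20, adjusted p = 0.00893). The DMSO libraries were themselves 1.53-fold apart. The log2 fold changes without DMSO replicate 2 were -0.58 and -0.52 and still passed. Fitted on the 4 compared libraries alone, neither passed (adjusted p = 0.0803 and 0.0815, over a range of 0.000309 to 0.0803 and 0.000392 to 0.0815 for the alternatives run), and with MI-2-2 the call was also lost without either MI-2-2 library. GENCODE lists a processed pseudogene, Trp53-ps, which has no row in the table, and how reads matching both were handled is not stated in any source used here.

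Mdm2, the inhibitor of p53, moved the other way. Its levels were 104 and 92.0 CPM in DMSO, 113 and 132 with MM-401, 136 and 146 with EPZ5676, 153 and 190 with MI-2-2, and 114 and 103 with iBET. Every EPZ5676 and MI-2-2 library was above both DMSO libraries, and iBET overlapped them. Mdm2 rose 1.75-fold with MI-2-2 (log2 fold change 0.80 ± 0.15, adjusted p = 0.00458) and 1.43-fold with EPZ5676 (0.52 ± 0.15, adjusted p = 0.0262). The MI-2-2 value passed with any 1 of the 4 libraries left out and was 0.75 without DMSO replicate 2. Fitted on the 4 compared libraries alone it did not pass (adjusted p = 0.0611, over a range of 7.82e-06 to 0.0611 for the alternatives run). The EPZ5676 value was 0.46 without that library and did not pass, nor did it pass without either EPZ5676 library, with total-count scaling (0.35) or the 4 compared libraries alone.

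Ccng1 encodes cyclin G1, which takes part in feedback on p53. It was at 196 and 172 CPM in DMSO, 304 and 390 with MM-401, 199 and 284 with EPZ5676, 289 and 315 with MI-2-2, and 235 and 239 with iBET. All 8 inhibitor libraries were above both DMSO libraries, EPZ5676 replicate 1 by the smallest margin. Only the MI-2-2 difference passed in the comparisons with DMSO (1.64-fold, log2 fold change 0.71 ± 0.19, adjusted p = 0.0204). It was 0.66 without DMSO replicate 2 and then did not pass, nor did it pass without either MI-2-2 library or when fitted on the 4 compared libraries alone. The MM-401 value was larger, 0.91 ± 0.19, with an adjusted p of 0.273 in a comparison in which no gene passed.

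Trp53inp1, which encodes a nuclear protein that enhances p53 activity and takes part in autophagy, had the largest change among the members well above the detection limit. The DMSO libraries were at 65.2 and 15.1 CPM, those of MM-401 at 54.8 and 63.6 CPM, and those of iBET at 73.5 and 47.5 CPM. EPZ5676 gave 284 and 292 CPM and MI-2-2 336 and 370. These 4 libraries were far above the 6 others, and the DMSO libraries were 4.33-fold apart. Trp53inp1 rose 7.16-fold with EPZ5676 (log2 fold change 2.84 ± 0.57, adjusted p = 0.00707) and 8.76-fold with MI-2-2 (3.13 ± 0.58, adjusted p = 0.00470). The values without DMSO replicate 2 were 2.17 and 2.47, and both passed with any 1 of the 4 libraries of their comparison left out. Fitted on the 4 compared libraries alone they had adjusted p = 0.0603 and 0.0615, with ranges over the alternatives run of 1.59e-07 to 0.0603 and 5.99e-09 to 0.0615.

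Neutrophil, macrophage and myeloblast markers moved with these differences. All 9 neutrophil markers, among them Ltf, Camp and Ngp, rose with EPZ5676 and with MI-2-2, and none was at 0 in any library. Their summed level was 682 to 3680 CPM in DMSO, 4730 to 6180 with MM-401, 51400 to 69500 with EPZ5676, 46500 to 47400 with MI-2-2 and 519 to 1250 with iBET. The 8 macrophage markers, of which up to 3 were at 0 in a DMSO library, also all rose with EPZ5676 and MI-2-2 and summed to 77.1 to 98.3 CPM in DMSO, 120 to 137 with MM-401, 377 to 480 with EPZ5676, 424 to 794 with MI-2-2 and 79.3 to 113 with iBET. Of the 12 myeloblast markers, 7 fell and 2 rose with EPZ5676 and with MI-2-2, with median log2 fold changes of -1.51 and -1.66. Their summed level was 11300 to 15000 CPM in DMSO, 12300 to 12700 with MM-401, 4690 to 5140 with EPZ5676, 4130 to 4700 with MI-2-2 and 7680 to 8520 with iBET. Without DMSO replicate 2 the neutrophil and macrophage markers again all rose with both inhibitors. The myeloblast markers again went in both directions, some higher and more of them lower. The part of cell composition in the changes of Trp53, Mdm2 and Trp53inp1 was not tested. In these bulk samples, fewer cells of a type and less RNA per cell cannot be told apart.

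Aen and Perp act in p53-dependent apoptosis. Aen, an exonuclease, was at 35.1 and 61.3 CPM in DMSO, 59.4 and 75.8 with MM-401, 21.7 and 29.1 with EPZ5676, 22.3 and 28.2 with MI-2-2, and 44.1 and 49.5 with iBET. It was lowest in the 4 libraries of EPZ5676 and MI-2-2, all below the DMSO range. Aen fell 1.89-fold with EPZ5676 (log2 fold change -0.92 ± 0.28, adjusted p = 0.0353) and 1.90-fold with MI-2-2 (-0.93 ± 0.28, adjusted p = 0.0311). DMSO replicate 2 was 1.75-fold above replicate 1, and without it the values were -0.44 and -0.44 and neither passed. Both calls were also lost without either library of their inhibitor and when fitted on the 4 compared libraries alone.

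Perp, a membrane protein of cell junctions that is also an apoptosis effector, was detected at a low level and mainly with EPZ5676. It had 33 and 34 reads in the EPZ5676 libraries, 4 and 1 in DMSO, 3 and 0 with MM-401, 1 and 1 with MI-2-2, and 1 and 0 with iBET. Both EPZ5676 libraries were at 1.60 CPM and all others at or below 0.156 CPM. Relative to library totals, EPZ5676 reads were 13.2 times those of DMSO (95% exact binomial interval 5.39 to 42.0), 22.9 times those of MM-401 (7.50 to 114), 39.9 times those of MI-2-2 (10.6 to 336) and 70.8 times those of iBET (12.3 to 2837), intervals that cover counting error only. The fitted log2 fold change against DMSO was 3.86 ± 0.86, and 3.34 without DMSO replicate 2. Perp was kept by the filter on low counts only through its EPZ5676 libraries and so had to differ between groups, and these values are a description. It did not pass against DMSO without EPZ5676 replicate 2.

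Phlda3 and Zmat3 were highest with MM-401. Phlda3, an inhibitor of AKT signalling, was at 4.95 and 1.44 CPM in DMSO, 14.7 and 26.1 with MM-401, 4.46 and 6.31 with EPZ5676, 8.32 and 8.66 with MI-2-2, and 5.88 and 5.78 with iBET. Zmat3, an RNA-binding zinc finger protein, was at 18.3 and 14.6 CPM in DMSO, 32.3 and 47.7 with MM-401, 13.0 and 16.9 with EPZ5676, 20.1 and 27.6 with MI-2-2, and 13.4 and 15.2 with iBET. For each gene both MM-401 libraries were above the other 8. Against DMSO the log2 fold changes with MM-401 were 2.66 ± 0.54 for Phlda3 and 1.28 ± 0.26 for Zmat3, each with adjusted p = 0.266. Leaving out DMSO replicate 2 gave 2.03 and 1.11, which did not pass, and without replicate 1 they were 3.82 and 1.46 and passed. The Phlda3 level was 3.44-fold apart between the DMSO libraries. With the other inhibitors neither gene passed against DMSO when all libraries were fitted. Without DMSO replicate 1, Phlda3 also passed with EPZ5676, MI-2-2 and iBET, at log2 fold changes of 1.90, 2.56 and 2.02, and DESeq2 called it with MI-2-2.

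Sesn2 and Tigar act on metabolism. Sesn2, a stress-induced inhibitor of mTORC1, was at 51.9 and 41.3 CPM in DMSO, 38.6 and 27.9 with MM-401, 40.8 and 25.0 with EPZ5676, 45.9 and 32.7 with MI-2-2, and 55.7 and 44.0 with iBET. The ranges of the 5 groups overlapped for most pairs, and it did not pass in any of the 10 comparisons in the fit by group. In each group replicate 1 was above replicate 2. Tigar, a phosphatase that slows glycolysis, was at 69.2 and 58.2 CPM in DMSO, 72.2 and 82.0 with MM-401, 55.1 and 50.7 with EPZ5676, 60.8 and 63.3 with MI-2-2, and 57.6 and 58.9 with iBET. It did not pass against DMSO with any inhibitor, and its log2 fold changes there lay between -0.27 ± 0.13 and 0.27 ± 0.12. The exons of Tigar share 153 bases with the antisense gene Platr31, and since the counting is not stated to use strand, reads of the pair cannot be told apart.

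**Figure D2:**
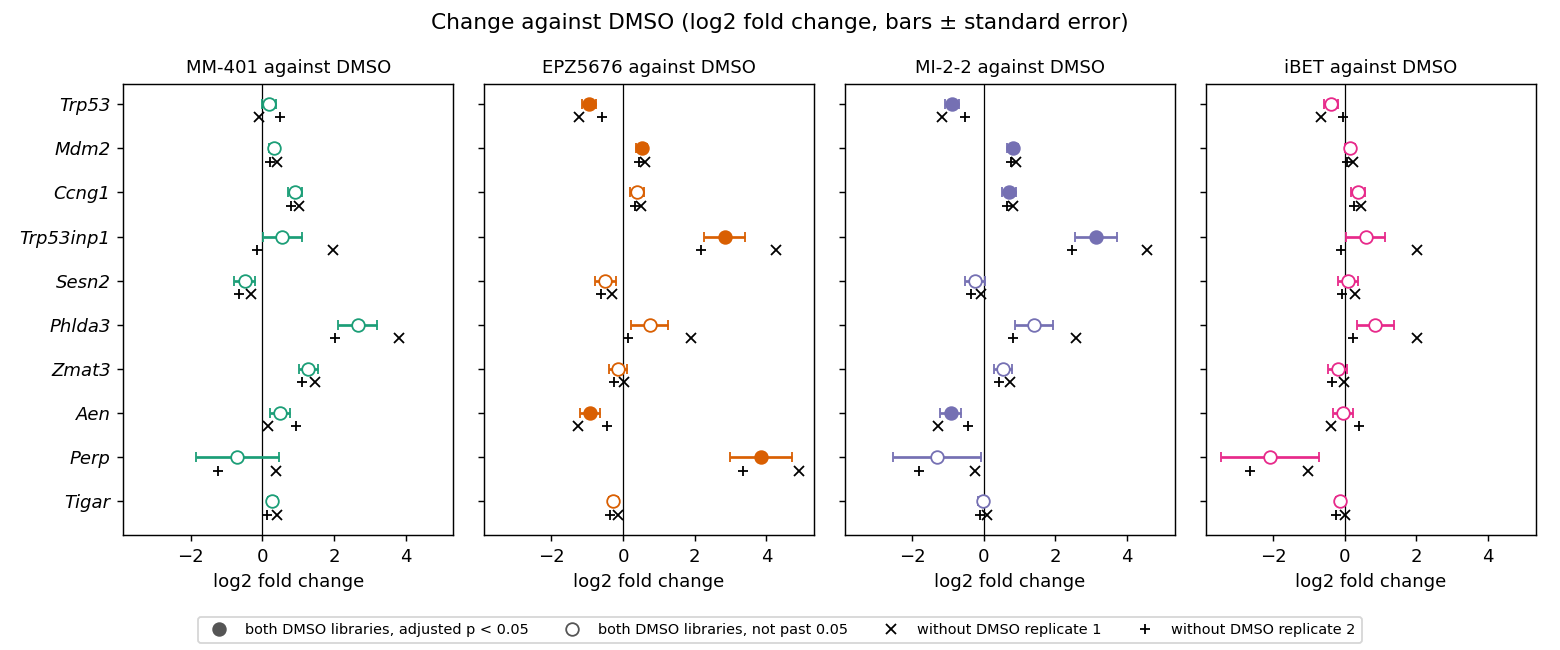
Log2 fold change of each member against DMSO for the 4 inhibitors, with standard errors as bars; filled circles passed an adjusted p of 0.05, and crosses and plus signs are the values without DMSO replicate 1 or 2. Trp53inp1 and Phlda3 move furthest when 1 DMSO library is left out, and with EPZ5676 Trp53inp1 is at 2.17 without replicate 2 and 4.26 without replicate 1.

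Counted over the members, 5 of 10 passed with EPZ5676, 3 higher (Mdm2, Trp53inp1 and Perp) and 2 lower (Trp53 and Aen). Of all genes tested 38.1% passed, 18.7% higher and 19.4% lower. Leaving out Perp, which the low-count filter kept only through its EPZ5676 libraries, the count was 4 of 9. With MI-2-2, 5 of 10 passed, 3 higher (Mdm2, Ccng1 and Trp53inp1) and 2 lower (Trp53 and Aen), beside 41.4% of all genes, 20.2% higher and 21.2% lower. These shares are near the background, and the counts are not a result about the members. The comparisons share the DMSO libraries. Without DMSO replicate 2, 3 members passed with EPZ5676 (Trp53, Trp53inp1 and Perp) beside 35.5% of genes, and 3 with MI-2-2 (Trp53, Mdm2 and Trp53inp1) beside 37.6%. Fitted on the 4 compared libraries alone, 1 member (Perp) passed with EPZ5676 beside 9.34% of genes, and 0 with MI-2-2 beside 9.12%. Leaving out Perp, no member passed in either of these fits.

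With MM-401 no member passed in edgeR's test (0 of 10, beside 0% of all genes). Ccng1, Phlda3 and Zmat3 had an unadjusted p under 0.05, as had 11.2% of all genes, and DESeq2 called the same 3, beside 2.34% of all genes. Without DMSO replicate 1, 4 members were called (these 3 and Trp53inp1), beside 10.2% of genes, and without replicate 2 there were 0, beside 0% of genes. With iBET no member passed in edgeR's test (0 of 10, beside 13.9% of genes, 6.38% higher and 7.54% lower), 0 had an unadjusted p under 0.05 beside 32.2% of genes, and DESeq2 called 0 beside 21.8%. The smallest adjusted p was 0.223, for Trp53, which had a log2 fold change of -0.38 ± 0.19. The count for iBET without DMSO replicate 2 was 0, beside 21.6% of genes. Without replicate 1 it was 3 (Trp53, Trp53inp1 and Phlda3), beside 27.9%.

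The comparisons between inhibitors do not use DMSO in their contrast. Their standard errors and p-values still rest on a spread estimated over all 5 groups, DMSO included. The DMSO libraries, 4.33-fold apart for Trp53inp1 and 3.44-fold for Phlda3, thus enter these results too. Against MM-401, 7 of 10 members differed with EPZ5676, beside 33.3% of all genes, or 6 of 9 leaving out Perp, and no test of that count was made. Trp53inp1 (log2 fold change 2.28 ± 0.56, adjusted p = 0.0173) and Perp were higher with EPZ5676. Trp53 (-1.13 ± 0.20, adjusted p = 0.00500), Phlda3 (-1.92 ± 0.52, adjusted p = 0.0253), Zmat3 (-1.42 ± 0.26, adjusted p = 0.00616), Aen (-1.41 ± 0.28, adjusted p = 0.00858) and Tigar (-0.54 ± 0.13, adjusted p = 0.0138) were lower. Without MM-401 replicate 2, which had the higher levels of Phlda3, Zmat3 and Aen, 1 member passed (Trp53), beside 11.6% of genes. Without EPZ5676 replicate 1, 4 passed (Trp53, Zmat3, Perp and Tigar), beside 19.6%.

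Between MI-2-2 and MM-401, 4 of 10 members differed, beside 35.7% of all genes. Trp53inp1 (2.57 ± 0.57, adjusted p = 0.0107) and Mdm2 (0.48 ± 0.15, adjusted p = 0.0360) were higher with MI-2-2, and Trp53 (-1.07 ± 0.20, adjusted p = 0.00550) and Aen (-1.42 ± 0.28, adjusted p = 0.00768) were lower. Without MM-401 replicate 2 only Trp53 passed, beside 12.9% of genes, and without MM-401 replicate 1, 2 passed (Trp53 and Aen), beside 13.9%. Fitted on the 4 compared libraries alone, 6 members differed between iBET and MM-401 (Trp53, Ccng1, Phlda3, Zmat3, Aen and Tigar). DESeq2 called 4 (Ccng1, Phlda3, Zmat3 and Tigar), and the fit with the replicate number as a block 3 (Trp53, Sesn2 and Zmat3). The shares of all genes in those fits are not given here, and their counts are not a result about the members. In the fit of all libraries by group, 1 of 10 differed between iBET and MM-401, beside 11.4% of all genes. It was Zmat3, 2.80-fold lower with iBET (-1.48 ± 0.26, adjusted p = 0.0132), and the count was 0 without MM-401 replicate 2 or either iBET library, beside 1.37%, 2.05% and 1.67% of genes.

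Between MI-2-2 and EPZ5676, 0 of 10 members passed in edgeR's test, beside 0.0154% of all genes. At an unadjusted p under 0.05 there were 2 members (Perp and Zmat3), beside 7.22% of genes, and DESeq2 called 0, beside 1.20%. The differences of MI-2-2 from EPZ5676 were 0.05 ± 0.20 for Trp53, 0.28 ± 0.15 for Mdm2, 0.29 ± 0.53 for Trp53inp1 and -0.01 ± 0.28 for Aen on the log2 scale. Perp, with 67 reads in EPZ5676 and 2 in MI-2-2, had a fitted difference of -5.16 ± 0.98 and an adjusted p of 0.215 from edgeR's test. The interval of its read ratio, 10.6 to 336, covers counting error only and leaves out the spread between libraries. As Perp was kept by the filter only through EPZ5676, both values are a description.

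The iBET libraries differed from EPZ5676 in 3 of 10 members, beside 37.6% of all genes, or 2 of 9 leaving out Perp. Trp53inp1 (-2.25 ± 0.56, adjusted p = 0.0158) and Perp were lower with iBET and Aen was higher (0.88 ± 0.28, adjusted p = 0.0412). Leaving out any 1 of the 4 libraries left Perp alone, beside 24.3% and 22.9% of genes without an EPZ5676 library and 21.2% and 16.8% without an iBET library. From MI-2-2 they differed in 3 of 10, beside 38.8%. Trp53inp1 (-2.54 ± 0.56, adjusted p = 0.0103) and Mdm2 (-0.66 ± 0.15, adjusted p = 0.0109) were lower with iBET and Aen was higher (0.89 ± 0.28, adjusted p = 0.0388). The count was 0 without iBET replicate 2, beside 15.6% of genes, and 1 (Trp53inp1) without MI-2-2 replicate 2, beside 20.9%.

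**Figure D3:**
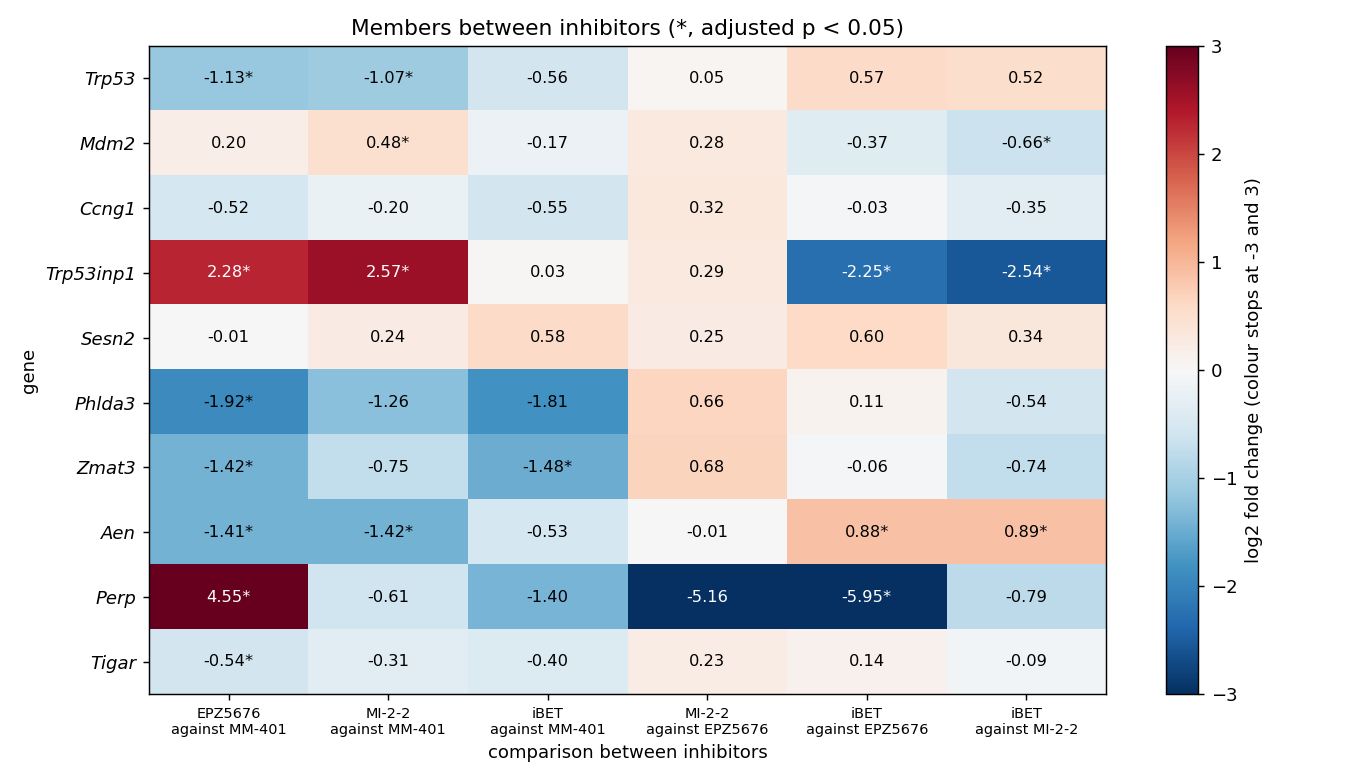
Log2 fold changes of the members (rows) between inhibitors (columns), with red for higher and blue for lower in the inhibitor named first, and an asterisk for an adjusted p under 0.05. Trp53inp1 is 2.28 and 2.57 higher on the log2 scale with EPZ5676 and MI-2-2 than with MM-401, and no asterisk stands in the column of MI-2-2 against EPZ5676.

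Other genes of the pathway gave counts in each direction. Of 31 further p53 targets in the table, 30 were tested. With EPZ5676, 7 rose and 6 fell, beside 18.7% and 19.4% of all genes, with a median log2 fold change of 0.12 beside -0.06 over all genes tested. With MI-2-2, 7 rose and 5 fell, beside 20.2% and 21.2% (median 0.22 beside -0.05). With iBET 0 rose and 1 fell, beside 6.38% and 7.54% (0.18 beside -0.04), and with MM-401 none passed in edgeR's test (0.14 beside -0.01). The counts with EPZ5676 and MI-2-2 are near those shares and are not a result about the list. Nor are those of the fit without DMSO replicate 2, whose shares of all genes differ and are given above for the members. Without DMSO replicate 2, where 31 were tested, the counts were 7 and 4 with EPZ5676, 8 and 4 with MI-2-2, 2 and 2 with iBET, and 0 and 0 with MM-401. Of these targets, none passed between MI-2-2 and EPZ5676 in edgeR's test.

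The targets named here were picked by smallest adjusted p against DMSO or most comparisons passed, and they do not stand for the list. Btg2, which restrains cell division, was at 27.0 and 19.9 CPM in DMSO, 120 and 127 with EPZ5676 and 130 and 156 with MI-2-2. It rose 5.24-fold with EPZ5676 (log2 fold change 2.39 ± 0.29, adjusted p = 0.00114) and 6.09-fold with MI-2-2 (2.61 ± 0.29, adjusted p = 0.000835). The EPZ5676 and MI-2-2 libraries lay above all others, which were at most 34.7 CPM. Plk2, a kinase of the polo family, went from 1.64 and 0.767 CPM in DMSO to 11.5 and 9.89 with EPZ5676 and 15.4 and 20.7 with MI-2-2 (log2 fold changes 3.13 ± 0.42 and 3.89 ± 0.43, adjusted p = 0.00155 and 0.000827). Its relative Plk3 rose by 1.36 ± 0.37 with EPZ5676 and 2.53 ± 0.38 with MI-2-2, and Prkab1, a subunit of AMP-activated kinase, by 1.20 ± 0.15 and 1.04 ± 0.15, on the log2 scale. Sesn1, a relative of Sesn2, fell in both (-0.53 ± 0.12 and -0.55 ± 0.12, adjusted p = 0.0114 and 0.00877) and was higher with iBET than with MM-401 (0.46 ± 0.12, adjusted p = 0.0468). Without DMSO replicate 2 these calls against DMSO passed, except that of Plk3 with EPZ5676.

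Of 26 p53 regulators in the table, 25 were tested. Those named below were picked in the same way as the targets. All of them fell with EPZ5676 and MI-2-2, and none of the regulators that rose is among them. Read against the same shares of all genes, with EPZ5676 4 rose and 8 fell (median log2 fold change -0.18 beside -0.06 over all genes), and with MI-2-2 5 rose and 7 fell (-0.11 beside -0.05). With iBET 2 rose and 0 fell, and with MM-401 none passed in edgeR's test. The fit without DMSO replicate 2 has other shares of all genes, given above, and its counts are not a result about the list. Without DMSO replicate 2 the counts were 7 and 8, 7 and 7, 6 and 1, and 0 and 0. Atr, the kinase that signals replication stress to p53, fell from 102 and 93.2 CPM in DMSO to 46.7 and 32.7 with EPZ5676 and 38.5 and 34.4 with MI-2-2 (log2 fold changes -1.30 ± 0.17 and -1.42 ± 0.17, adjusted p = 0.00146 and 0.00102). Smyd2 and Prmt5, methyltransferases that act on p53, fell by 1.78 and 1.44 with EPZ5676 and by 1.74 and 1.31 with MI-2-2 on the log2 scale. Usp10, which removes ubiquitin from p53, fell by 1.39 and 1.15. All of these passed without DMSO replicate 2, where Smyd2 was at -1.35 and -1.30.

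**Figure D4:**
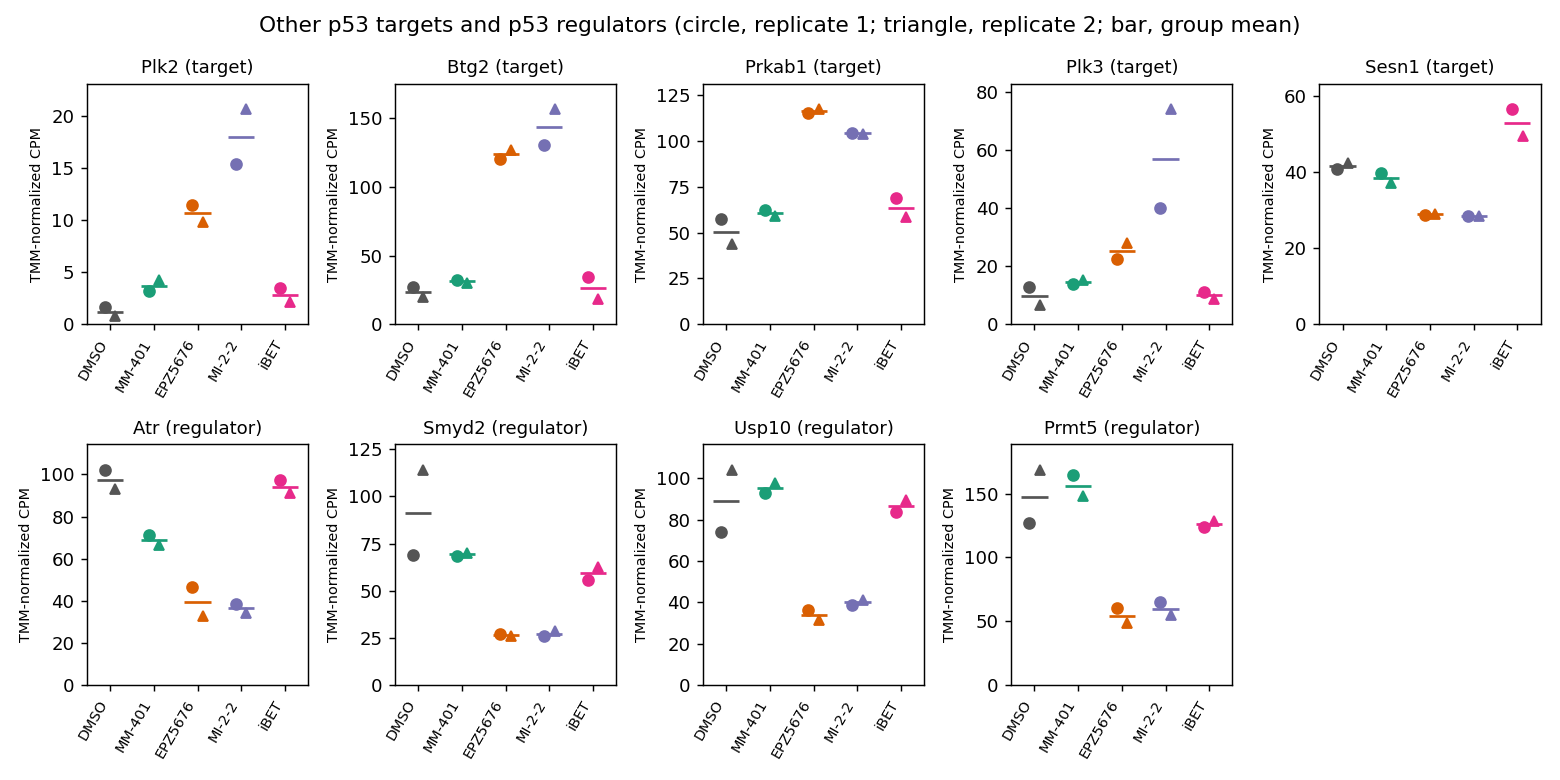
TMM-normalized CPM of the named p53 targets (top) and p53 regulators (bottom) in each library, with circles for replicate 1, triangles for replicate 2 and bars for group means. Btg2 sits between 120 and 156 CPM with EPZ5676 and MI-2-2 and at or below 34.7 CPM elsewhere, and Atr is at or below 46.7 CPM in those 4 libraries and at or above 66.5 CPM in the other 6.

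Genes of the cell division program were counted beside the same shares of all genes. Of 25 proliferation genes, among them Mki67 and Mcm2, 3 rose and 6 fell with EPZ5676, 0 rose and 8 fell with MI-2-2, 0 rose and 2 fell with iBET, and none passed with MM-401 in edgeR's test. The median log2 fold changes were -0.15, -0.30, -0.27 and -0.11 in that order. Shares of all genes differ in the fit without DMSO replicate 2, as given above, and its counts are not a result about this list. Without DMSO replicate 2 the counts were 1 and 5, 0 and 8, 0 and 3, and 0 and 0. Their summed level was 7270 to 8520 CPM in DMSO, 7010 to 7210 with MM-401, 6880 to 7090 with EPZ5676, 5620 to 5830 with MI-2-2 and 6640 in each iBET library. Its part in the changes of the members was not tested.

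By the root mean square difference of centred log2 CPM over the 10 libraries, the genes whose pattern was most like that of Trp53 were Prmt6 (0.0674), Nudcd2 (0.0777) and Csrp2bp (0.0792). For Mdm2 they were Csnk1g1 (0.0940), Taok1 (0.0955) and Sh3bp1 (0.0984). These values describe likeness over 10 libraries and carry no test.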

How the data were processed

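RNA from 10 MAF9 libraries was made with an RNeasy Mini kit and an Illumina TruSeq protocol, per the labels. The authors deposited 1 table of raw read counts per gene. The submitters' processing notes name TopHat2, Subread and DESeq and the build mm9, without versions or roles, and the treatment of multiply matching reads and of strand is not given in the sources used here. Totals ranged from 20394762 to 29473127 reads, and intervals cover counting error only. The edgeR quasi-likelihood test (version 4.0.16 under R 4.3.3, TMM scaling, genes kept by filterByExpr) was run on the counts in 1 fit of all libraries by group, with Benjamini-Hochberg adjustment within each of 10 comparisons over 12971 genes and a threshold of 0.05. The standard error is the log2 fold change divided by the square root of F. Exon lengths came from GENCODE M21 (GRCm38) and promoters from RefSeq (GRCm38.p6), and no coordinate was converted. The script was tested on simulated data. Alternatives were total-count scaling, DESeq2 1.42.0 or its size factors, no filter, a mean of at least 5 CPM, the 4 compared libraries alone, a replicate block and each library left out. The members and lists were chosen with earlier results of these data known. From each further list the 4 genes with the smallest adjusted p against DMSO and the 2 passing most comparisons are named. The counts of p53 target, regulator, proliferation and marker genes without DMSO replicate 2 were added after seeing the data.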

Additional observations from a re-analysis of the deposited data

How the results depend on the processing

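The count of members called changed by over 1.5 times as follows. Fitted on the 4 compared libraries alone, against DMSO it came to 1 with EPZ5676 (Perp) and 0 with MI-2-2, beside 9.34% and 9.12% of genes. In such fits it was 7 for MI-2-2 and 6 for iBET against MM-401, and 5 and 6 for iBET against EPZ5676 and MI-2-2. DESeq2 gave 3 for MM-401 against DMSO and 4 for iBET against MM-401. The replicate numbers are shared by the groups, but no label says that they mark a batch. The correlation of same-numbered deviations from the group means lay between 0.28 and 0.67 over 10 pairs of groups. With the replicate number as a block, the counts were 5 for iBET against EPZ5676, 6 for iBET against MI-2-2 and 3 for iBET against MM-401, and the other 7 counts stayed within 1.5 times. Sesn2, which passed in no comparison without the block, was then called for EPZ5676 against DMSO (log2 fold change -0.53, adjusted p = 0.0117 from edgeR's test, over a range of 0.0117 to 0.683) and for iBET against EPZ5676, MI-2-2 and MM-401. With 1 library left out the count ranged from 2 to 6 for EPZ5676 and for MI-2-2 against DMSO, 0 to 4 for MM-401 and 0 to 3 for iBET against DMSO, 1 to 5, 1 to 3 and 0 to 1 for EPZ5676, MI-2-2 and iBET against MM-401, and was 1 in all 4 cases for iBET against EPZ5676 and 0 to 2 for iBET against MI-2-2. The member left for iBET against EPZ5676 was Perp, which the filter kept only through EPZ5676. A lone remaining library is assumed to vary like the other groups. The cause of these differences was not tested. Most of these counts stand without the share of all genes in the same fit and are not a result about the members.

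Against DMSO, some log2 fold changes that did not pass in the fit of all libraries changed sign with 1 library left out. For iBET the ranges were -0.38 to 0.41 for Aen (0.0020 with the replicate block), -0.078 to 0.28 for Sesn2, -0.25 to 0.0057 for Tigar and -0.11 to 2.01 for Trp53inp1. For MM-401 they were -4.38 to 0.37 for Perp, -0.094 to 0.50 for Trp53 and -0.16 to 1.98 for Trp53inp1. They were -0.12 to 0.10 for Tigar with MI-2-2 and -0.33 to 0.040 for Zmat3 with EPZ5676. Total-count scaling moved the median log2 fold change of all genes by -0.17 for EPZ5676 and -0.15 for MI-2-2 against DMSO, and the share of called genes that were higher from 49.2% to 34.7% and from 48.9% to 37.1%. No member called in the fit of all libraries by group changed sign in that comparison under any alternative run. At this depth Perp, with 0 to 4 reads outside EPZ5676, allows no comparison among the other groups.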
